A study of Mus musculus with 10 samples.

Results

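The genes described here are 10 markers of Kupffer cells and other macrophages, taken by symbol from a table of 55401 genes in mouse liver: Clec4f, Timd4, Marco, Cd5l, Folr2, Adgre1, Csf1r, Cd68, Lyz2 and Ccr2. Each symbol matched 1 row of the table, and 9 of the 10 had a mean of at least 0.5 FPKM (a read level corrected for gene length and depth, the authors' value) over the libraries and were among the 12731 genes tested. Ccr2 lay below that level. The libraries came from bulk liver of 10 mice, 5 of the NIKflox genotype and 5 of NIKhKO, and all 10 mice received the Lieber-DeCarli ethanol liquid diet, with 5% ethanol, for 4 weeks, so that both genotypes share the ethanol exposure and no unexposed liver is compared. NIK is a kinase of the non-canonical NF-kB pathway, encoded by Map3k14. The series title speaks of hepatic NIK, and the design text writes the genotypes as NIKF/F and NIKHKO. The labels do not spell out hKO. Neither the driver of the deletion, nor the cells in which it acts, nor the age of the mice is stated there. Nothing in the labels ties the mice to litters or cages, and p-values cover the spread between these 10 samples alone. Positions are those of the deposited table, on GRCm38.

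Kupffer cells are the resident macrophages of the liver. They sit in the sinusoids, where they take up particles, dying cells and bacterial products that arrive with portal blood, and they depend on signals through the CSF1 receptor. Monocytes that enter the liver from blood are a separate source of macrophages, and their recruitment is driven in large part by the chemokine receptor CCR2. In mice, Clec4f is used as a marker of Kupffer cells and Timd4 as a marker of those that have been resident for long, while Adgre1, Csf1r, Cd68 and Lyz2 are shared by macrophages of many origins. In alcohol-related liver injury, Kupffer cells are known as an early source of inflammatory mediators.

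The stretch upstream of the gene start is shown for 3 markers, because Clec4f and Cd5l, the most abundant of the resident markers, varied together across the libraries while Marco did not follow them. The sequences are from RefSeq (GRCm38.p6), 5′ to 3′ on the strand of the gene, and end before the gene start in the deposited table. Clec4f is at chr6:83656188-83656366 on the minus strand, Cd5l at chr3:87357631-87357880 on the plus strand and Marco at chr1:120505025-120505274 on the minus strand. Capitals mark GAGGAA, a core sequence bound by PU.1 (encoded by Spi1), or its reverse complement TTCCTC.
Clec4f: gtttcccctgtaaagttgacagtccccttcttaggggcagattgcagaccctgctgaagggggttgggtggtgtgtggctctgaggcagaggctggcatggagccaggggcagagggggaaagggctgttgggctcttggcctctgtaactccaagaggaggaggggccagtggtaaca
Cd5l: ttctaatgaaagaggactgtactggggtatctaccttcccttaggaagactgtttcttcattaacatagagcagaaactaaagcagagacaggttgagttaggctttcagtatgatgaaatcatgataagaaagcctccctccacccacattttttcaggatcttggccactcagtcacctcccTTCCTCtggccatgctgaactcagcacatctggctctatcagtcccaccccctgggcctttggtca
Marco: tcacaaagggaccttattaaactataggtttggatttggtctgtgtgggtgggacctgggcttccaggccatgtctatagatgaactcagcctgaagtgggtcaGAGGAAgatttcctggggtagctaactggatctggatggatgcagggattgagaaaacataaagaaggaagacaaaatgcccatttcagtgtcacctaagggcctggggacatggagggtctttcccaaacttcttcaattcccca
The motif was found 1 time in the Cd5l stretch, in reverse complement, 1 time in the Marco stretch and 0 times in the Clec4f stretch. Of 32851 RefSeq promoters, 23.3% held it on either strand in the same 250 bases, and 17.1% in the same 179 bases as for Clec4f. Among the markers not shown, the motif was found 1 time in 250 bases for Cd68 and 0 times for Timd4 (250 bases), Folr2 (246) and Lyz2 (201). No stretch was available for Csf1r, Adgre1 and Ccr2. A match is a description of these letters and not of binding, and a link between the motif and the shared variation was not tested.

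The targeted gene, Map3k14, averaged 0.606 ± 0.168 FPKM in the NIKflox livers against 0.383 ± 0.0372 FPKM in the NIKhKO livers (SD, n = 5 each), with ranges that did not overlap. It was not called by edgeR's quasi-likelihood test (log2 fold change −0.59, SE 0.19, adjusted p = 0.33). Total estimated counts were 47161869 to 65052525 per library. The hepatocyte marker Alb, which defines the labelled tissue, stood at 24800 to 36390 FPKM. NIKflox 2 and NIKflox 4 stood apart, since 10 heart muscle genes summed to 9.72 and 39.5 FPKM there, while the remaining 8 libraries had sums of 0.117 to 1.03 FPKM. NIKflox 2 also held Adipoq, a fat cell gene, at 2.88 FPKM, against at most 0.255 FPKM elsewhere. The part of these transcripts in the marker values was not tested, and the fold change of each marker is given below without both libraries as well. That of Map3k14 was −0.45 without them.

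None of the 9 tested markers passed edgeR's test between the genotypes, and the FPKM ranges of NIKflox and NIKhKO overlapped for all 10. The largest difference among the tested genes was that of Folr2, whose NIKhKO mean was 115% of the NIKflox mean. Over all 10 libraries, the highest value was between 1.62 times (Marco) and 2.89 times (Ccr2) the lowest. The background in the same test was 0.0236% of genes called at an adjusted p below 0.05 (0.0157% higher and 0.00785% lower in NIKhKO), and 2.2% with ranges that did not overlap, so a count of 0 among 9 genes lies near the background. Log2 fold changes below are edgeR's, NIKhKO minus NIKflox. In bulk liver, fewer Kupffer cells and less RNA per Kupffer cell cannot be told apart.

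**Figure D1:**
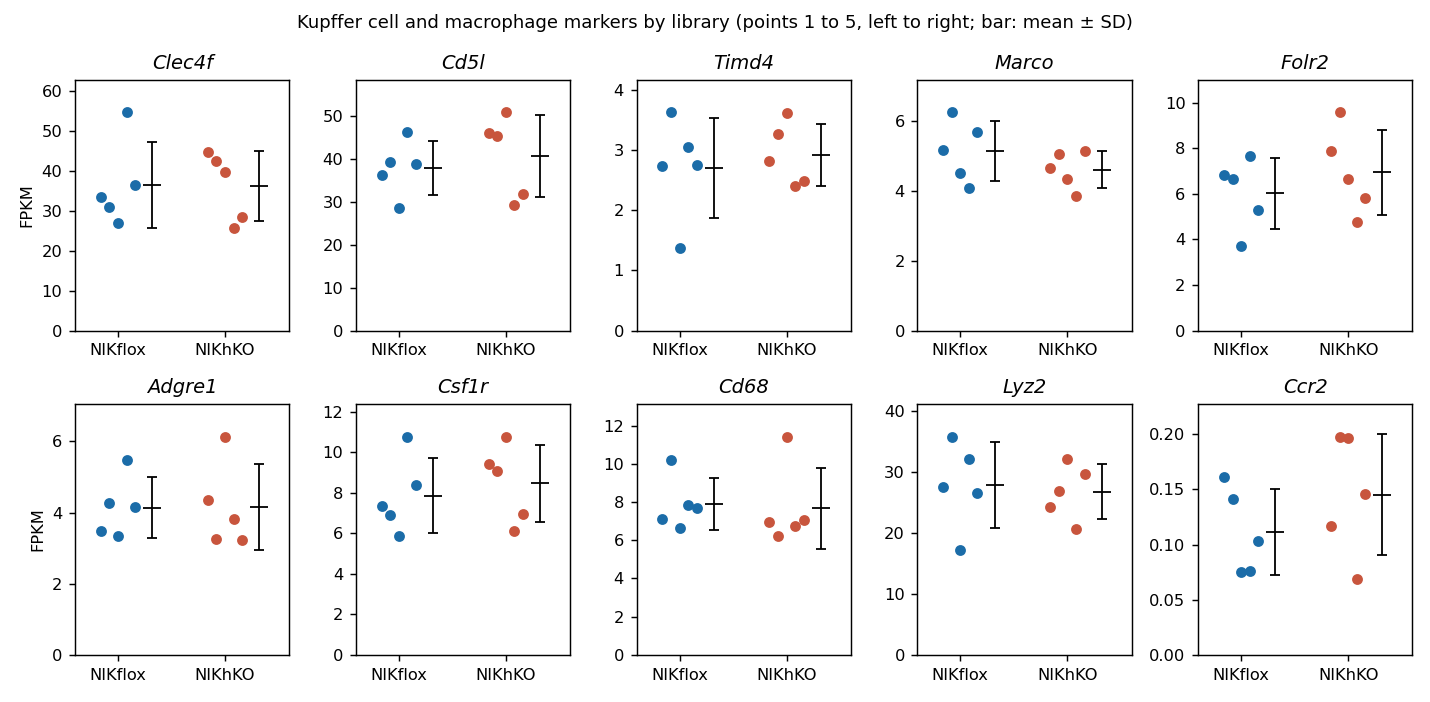
FPKM of each of the 10 marker genes (vertical axes, linear and starting at 0) in the 5 NIKflox (blue) and 5 NIKhKO (red) libraries, ordered 1 to 5 from left to right, with the mean ± SD beside them. The points of the genotypes overlap in every panel, and Clec4f spreads from 25.6 to 54.6 FPKM.

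Clec4f (ENSMUSG00000014542, chr6:83644542-83656187, minus strand) encodes a C-type lectin receptor that binds galactose-containing glycans. It read 33.4, 31.0, 26.9, 54.6 and 36.6 FPKM in NIKflox 1 to 5 and 44.8, 42.5, 39.7, 25.6 and 28.3 FPKM in NIKhKO 1 to 5. NIKflox 4 was the highest library and NIKhKO 4 the lowest, and the other 8 values of both genotypes interleaved between them. The means were 36.5 ± 10.7 and 36.2 ± 8.68 FPKM (SD, n = 5 each). The log2 fold change was 0.06 (95% interval −0.38 to 0.49), and 0.21 without NIKflox 2 and 4.

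Cd5l (ENSMUSG00000015854, chr3:87357881-87371073, plus strand) encodes a secreted scavenger-receptor protein that macrophages release into blood. It read 36.2, 39.1, 28.5, 46.2 and 38.8 FPKM in NIKflox and 46.0, 45.3, 50.8, 29.3 and 31.9 FPKM in NIKhKO. NIKhKO 1 to 3 lay near or above the highest NIKflox library, whereas NIKhKO 4 and 5 lay below 4 of the 5 NIKflox libraries. The means were 37.8 ± 6.36 and 40.6 ± 9.46 FPKM (SD, n = 5 each), and the log2 fold change was 0.17 (95% interval −0.20 to 0.54), or 0.28 without NIKflox 2 and 4.

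Timd4 (ENSMUSG00000055546, chr11:46810800-46844332, plus strand) encodes a receptor for phosphatidylserine on dying cells. It read 2.74, 3.62, 1.36, 3.04 and 2.75 FPKM in NIKflox and 2.82, 3.26, 3.61, 2.41 and 2.48 FPKM in NIKhKO. NIKflox 3 was the lowest of all libraries, and the values of NIKhKO 1 to 5 fell within the NIKflox range. The log2 fold change was 0.17 (95% interval −0.35 to 0.69), or 0.40 without NIKflox 2 and 4. Without NIKflox 3 it was 0.0067.

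Marco (ENSMUSG00000026390, chr1:120474538-120505024, minus strand) encodes a class A scavenger receptor for bacteria and particles. It was the steadiest marker, with a coefficient of variation of 15.1% over the 10 libraries. It read 5.16, 6.25, 4.51, 4.09 and 5.69 FPKM in NIKflox and 4.65, 5.06, 4.33, 3.85 and 5.15 FPKM in NIKhKO. NIKflox 4, the highest library for Clec4f, was the lowest NIKflox library for Marco. Its log2 fold change was −0.10 (95% interval −0.43 to 0.23), or −0.11 without NIKflox 2 and 4, and Marco was the only tested marker with a negative value in the fit to all libraries.

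Folr2 (ENSMUSG00000032725, chr7:101839988-101857194, minus strand) encodes the folate receptor beta of tissue macrophages. It read 6.81, 6.65, 3.69, 7.65 and 5.30 FPKM in NIKflox and 7.89, 9.57, 6.63, 4.78 and 5.80 FPKM in NIKhKO. NIKhKO 1 and 2 lay above the NIKflox libraries, and the other 3 NIKhKO libraries lay among them. The means were 6.02 ± 1.55 and 6.93 ± 1.86 FPKM (SD, n = 5 each), with a log2 fold change of 0.26 (95% interval −0.22 to 0.73), or 0.43 without NIKflox 2 and 4. Folr2 overlaps the antisense gene Gm10602 (mean 0.281 FPKM), and no source used here says whether counting used strand, so reads of the pair could not be told apart.

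Among the markers shared by macrophages in general, Csf1r (ENSMUSG00000024621, chromosome 18) encodes the receptor for the growth factors CSF1 and IL34, on which macrophage survival depends. It read 7.37, 6.93, 5.88, 10.8 and 8.38 FPKM in NIKflox and 9.45, 9.10, 10.8, 6.10 and 6.96 FPKM in NIKhKO. NIKflox 4 and NIKhKO 3 shared the top and NIKflox 3 and NIKhKO 4 the bottom, so both genotypes spanned almost the same range. The log2 fold change was 0.18 (95% interval −0.22 to 0.58), or 0.28 without NIKflox 2 and 4.

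Adgre1 (ENSMUSG00000004730, chr17:57358691-57483527, plus strand) encodes an adhesion receptor, the classical surface antigen of mouse macrophages. It read 3.47, 4.25, 3.33, 5.48 and 4.15 FPKM in NIKflox and 4.36, 3.27, 6.13, 3.80 and 3.22 FPKM in NIKhKO. NIKhKO 3 was the highest library and NIKhKO 5 the lowest, so the NIKflox range lay inside that of NIKhKO. The log2 fold change was 0.08 (95% interval −0.36 to 0.53). It was 0.25 without NIKflox 2 and 4, and −0.12 without NIKhKO 3.

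Cd68 (ENSMUSG00000018774, chr11:69664213-69666153, minus strand) encodes a glycoprotein of late endosomes and lysosomes. It read 7.11, 10.2, 6.64, 7.83 and 7.71 FPKM in NIKflox and 6.95, 6.20, 11.4, 6.75 and 7.05 FPKM in NIKhKO. NIKhKO 3 and NIKflox 2 stood above the rest, and the other 8 libraries lay between 6.20 and 7.83 FPKM. The log2 fold change was 0.03 (95% interval −0.41 to 0.47), or 0.16 without NIKflox 2 and 4 and −0.18 without NIKhKO 3.

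Lyz2 (ENSMUSG00000069516, chr10:117277331-117282321, minus strand) encodes the lysozyme of macrophages, monocytes and neutrophils. It read 27.4, 35.7, 17.2, 32.2 and 26.5 FPKM in NIKflox and 24.3, 26.9, 32.2, 20.7 and 29.7 FPKM in NIKhKO. NIKflox 2 was the highest and NIKflox 3 the lowest, and the NIKhKO values fell within the NIKflox range. The log2 fold change was 0.0086 (95% interval −0.41 to 0.43), or 0.22 without NIKflox 2 and 4. The neighbouring paralog Lyz1 was listed at no more than 0.346 FPKM. Reads shared between these near-identical genes could have been split by the authors' counting, so the level of Lyz2 is uncertain to that extent.

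Ccr2 (ENSMUSG00000049103, chr9:124101950-124113557, plus strand), the receptor through which monocytes follow CCL2 out of the bone marrow, was barely detected. It read 0.162, 0.141, 0.0756, 0.0757 and 0.104 FPKM in NIKflox and 0.117, 0.198, 0.197, 0.0684 and 0.145 FPKM in NIKhKO. NIKhKO 2 and 3 were the highest and NIKhKO 4 the lowest, with the NIKflox libraries between them. These values rest on 28 to 97 estimated counts per library. In a fit without the filter on low values the log2 fold change was 0.44, with the widest interval of the 10 markers (95% interval −0.38 to 1.26; edgeR adjusted p = 0.67). Without NIKflox 2 and 4 it was 0.40.

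For the 9 tested markers, edgeR's adjusted p-values ran from 0.77 for Folr2 to 0.99 for Lyz2, and 0 had an unadjusted p below 0.05, against 10% of all genes tested. No marker was called in DESeq2, in limma on log2(FPKM + 1), or without any single library. Of the 9 log2 fold changes 8 were positive, with a median of 0.08 (0.25 without NIKflox 2 and 4). Over all genes tested, 48.2% were positive, with a median of −0.0098 (0.0032 without NIKflox 2 and 4). The markers come from the same libraries and some vary together, so their signs are not separate observations. Clec4f, Adgre1, Cd68 and Lyz2 had lower or near-equal means on the FPKM scale and slightly negative differences in limma, so no direction can be given for them. The intervals bound what these libraries leave possible. For Clec4f, the NIKhKO level could lie between 0.771 and 1.40 times the NIKflox level, and for Timd4 between 0.783 and 1.62 times.

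**Figure D2:**
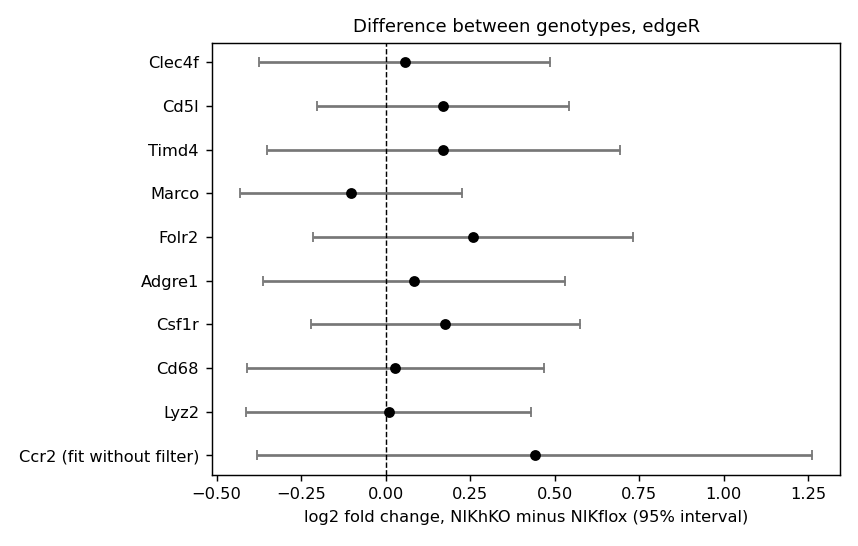
Log2 fold change (NIKhKO minus NIKflox, horizontal axis) of each marker from edgeR, with its 95% interval as a bar. Each interval spans 0, and that of Ccr2, from the fit without the filter, is the widest.

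The order of the levels was similar from liver to liver where the steps were large. By mean FPKM over the 10 libraries it ran Cd5l (39.2), Clec4f (36.3), Lyz2 (27.3), Csf1r (8.17), Cd68 (7.78), Folr2 (6.48), Marco (4.87), Adgre1 (4.15), Timd4 (2.81) and Ccr2 (0.128). Lyz2 exceeded Csf1r in 10 of 10 libraries, by 2.57 to 5.16 times, and Timd4 exceeded Ccr2 by 16.5 to 40.2 times. Csf1r and Cd68 could not be ordered, with Csf1r higher in 5 of 10 libraries. The ranges of all neighbours overlapped except at the steps from Lyz2 to Csf1r and from Timd4 to Ccr2. Cd5l lay above 91.7% of the genes tested, and Timd4 above 45.9%.

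Across livers, 42 of the 45 pairs of markers had a positive Pearson r, and 6 of them passed the test given below. The share of positive pairs over all genes was not measured. A positive r with Clec4f was common. Cd68, at an r of 0.13, stood only 5210th of 10565 other genes with a mean of at least 1 FPKM. The libraries at the extremes came from both genotypes. NIKflox 3 was among the 3 lowest libraries for 9 of the 10 markers, and so was NIKhKO 4. At the other end, NIKflox 4 and NIKhKO 3 were each among the 3 highest for 7 markers. In total counts NIKhKO 4 (53225028) and NIKflox 3 (55070750) were the second and the third lowest, after NIKflox 1 (47161869), and NIKflox 4 was the highest (65052525). The part of depth in these ranks was not tested. The sums of 12 sinusoidal endothelial markers were 74.1 FPKM in NIKflox 3 and 83.4 FPKM in NIKhKO 4, within the range of the other libraries (49.9 to 89.2 FPKM). The part of cell composition in these ranks was not tested.

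**Figure D3:**
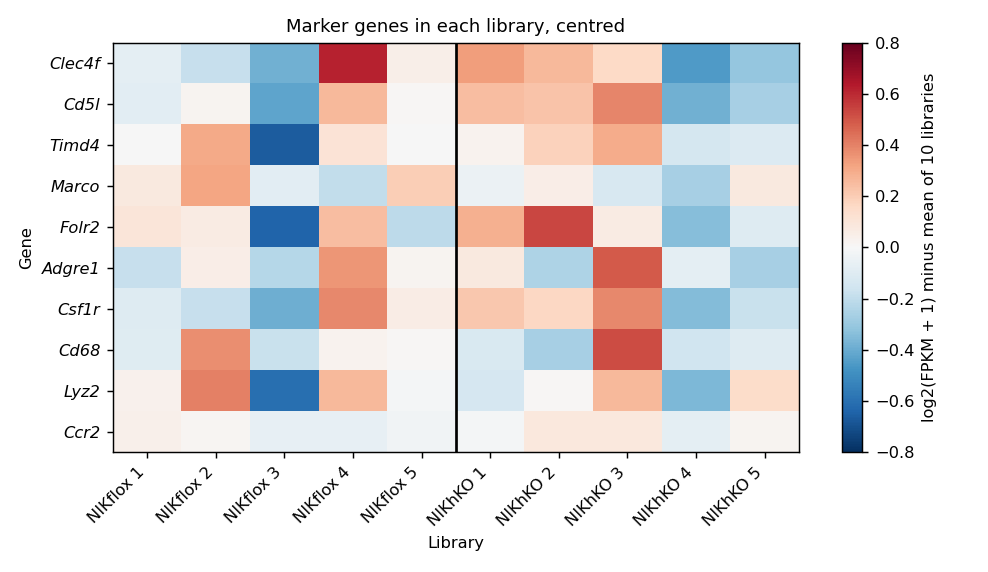
Log2(FPKM + 1) of each marker (rows) in each library (columns), minus its mean over the 10 libraries; red is above and blue below the mean, and the line separates NIKflox from NIKhKO. NIKflox 3 and NIKhKO 4 are blue for nearly all markers, and Ccr2 is pale because the added 1 outweighs its level.

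The tightest relations were between Clec4f, Cd5l and Csf1r. Over the 10 libraries, log2(FPKM + 1) of Clec4f and Csf1r had a Pearson r of 0.93 (permutation p = 0.00017, adjusted p = 0.0038) and a Spearman rho of 0.94 (permutation p = 0.00023, adjusted p = 0.010). Leaving out the 2 libraries farthest from the Clec4f median left r at 0.91, and leaving out NIKflox 2 and 4 left it at 0.92. Csf1r stood in a nearly fixed proportion to Clec4f, at 0.218 ± 0.0122 times its FPKM in NIKflox and 0.236 ± 0.0246 times in NIKhKO (SD, n = 5 each). NIKhKO 3 was the exception, at 0.271. For Cd5l and Csf1r, r was 0.95 (permutation p = 9e-05, adjusted p = 0.0038) with a rho of 0.92 (permutation p = 0.00058, adjusted p = 0.013), and r was 0.90 without the 2 libraries farthest from the Cd5l median. For Clec4f and Cd5l, r was 0.88 (permutation p = 0.0010, adjusted p = 0.015) with a rho of 0.88 (permutation p = 0.0016, adjusted p = 0.023), and r was 0.90 without the 2 libraries farthest from the Clec4f median.

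Marco did not follow this pattern. Its r with Clec4f was −0.13 (permutation p = 0.73, adjusted p = 0.78) and its rho −0.05 (permutation p = 0.89, adjusted p = 0.91), with r at −0.22 without the 2 libraries farthest from the Clec4f median. Without NIKflox 2 and 4 the r was 0.33, so its sign rested on those libraries. Marco was not alone in this, since r with Clec4f was 0.13 for Cd68 and 0.19 for Ccr2 (permutation p = 0.71 and 0.59, adjusted p = 0.78 and 0.70). Without NIKflox 2 and 4 these r were 0.26 and 0.62. The FPKM of Marco was between 0.0748 times that of Clec4f, in NIKflox 4, and 0.202 times, in NIKflox 2. Of the 45 pairs of markers, 6 passed for Pearson's r at an adjusted p below 0.05, all of them positive, with p-values adjusted over the 45 pairs in each family. The other pairs past it were Timd4 with Cd5l, Timd4 with Lyz2, and Cd5l with Folr2. By Spearman's rho 4 pairs passed, all among Clec4f, Cd5l, Csf1r and Timd4, and Timd4 with Lyz2 and Cd5l with Folr2 did not (adjusted permutation p = 0.11 and 0.14). Pearson's r between Timd4 and Lyz2 went from 0.87 to 0.60, and between Cd5l and Folr2 from 0.81 to 0.57, without the 2 farthest libraries. All libraries share 1 scaling per library, which can add to a relation between genes, and genotype was pooled because 5 libraries are too few for a separate r.

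**Figure D4:**
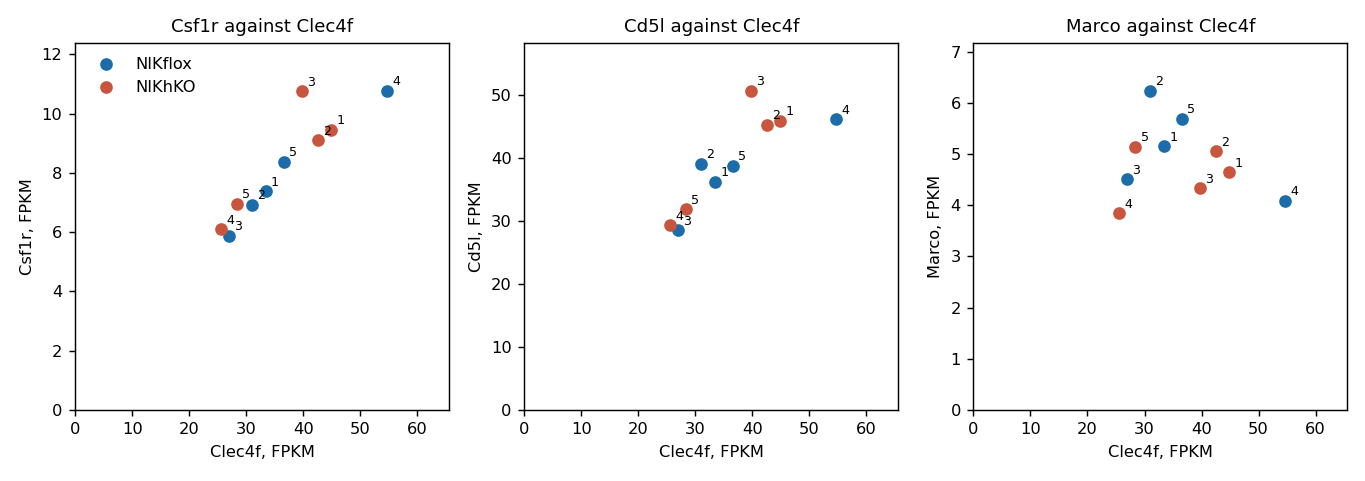
FPKM of Csf1r, Cd5l and Marco (vertical axes) against FPKM of Clec4f (horizontal axes) in the 10 libraries, with NIKflox in blue, NIKhKO in red and the replicate number beside each point. Csf1r and Cd5l rise with Clec4f in both genotypes, while Marco is at 4.09 FPKM in NIKflox 4, where Clec4f is highest.

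Of 10565 other genes with a mean of at least 1 FPKM, those with a pattern most like Clec4f were Smarca4 (r = 0.97), Zfp839 (0.96), Gnl3l (0.96), Csf1r (0.93) and Pdxdc1 (0.93), each over 10 libraries. Cd5l came 19th, Folr2 218th, Adgre1 1160th, Timd4 1555th, Lyz2 2309th, Cd68 5210th and Marco 7433rd in the same order. These 5 were the top of a long ranking, and after adjustment over all 10565 genes the permutation p-values of r were 0.079 to 0.27. In that adjustment Csf1r was at 0.21 and Cd5l at 0.31, so neither passed over all genes. For Ccr2 the 5 genes most alike were Slc41a2 (r = 0.94), Tgtp1 (0.90), Gbp2b (0.88), Calhm6 (0.87) and Rmdn1 (0.86), all with an adjusted permutation p of 0.99. The marker most like Ccr2 was Timd4, at rank 174.

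Other genes of Kupffer cells gave a mixed picture. Of 17 such genes 16 were tested, 9 on the positive and 7 on the negative side, the median being 0.07 and 0 called. The complement genes C1qa (41.9 ± 7.32 against 43.7 ± 5.81 FPKM, NIKflox first), C1qb and C1qc, which macrophages supply to blood, differed by log2 fold changes of 0.05 to 0.12. Vsig4, a complement receptor of Kupffer cells, read 15.5 ± 3.60 and 17.3 ± 3.94 FPKM (SD, n = 5 each).

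The Kupffer cell genes with the smallest p-values went in both directions, and none passed. Cd207, a C-type lectin also found in Langerhans cells, read 2.12, 3.26, 1.27, 2.55 and 1.83 FPKM in NIKflox and 1.11, 1.31, 1.67, 0.952 and 1.22 FPKM in NIKhKO, a log2 fold change of −0.75 (edgeR adjusted p = 0.37), or −0.43 without NIKflox 2 and 4. NIKflox 3 lay among the NIKhKO libraries, and the other 4 NIKflox libraries lay above them. Cd163, the receptor for haptoglobin-haemoglobin complexes, read 1.899, 1.71, 1.10, 1.76 and 1.59 FPKM in NIKflox and 1.18, 0.945, 1.28, 1.09 and 0.631 FPKM in NIKhKO, a log2 fold change of −0.58 (edgeR adjusted p = 0.38), with NIKflox 3 again among the NIKhKO values. Hmox1, the haem oxygenase that degrades haem, had a positive value of 0.46 (14.1 ± 1.86 against 18.6 ± 4.99 FPKM; SD, n = 5 each; edgeR adjusted p = 0.45). NIKhKO 1 and 3, at 22.2 and 25.5 FPKM, carried that difference, and the other 3 NIKhKO libraries read 14.3 to 15.8 FPKM.

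Of 20 genes shared by most tissue macrophages 16 were tested, 14 positive and 2 negative, with a median of 0.08 and 0 called. The smallest p-values were those of Laptm5, a lysosomal membrane protein of blood cells (4.09 ± 0.594 against 4.90 ± 1.25 FPKM, log2 fold change 0.33), Sirpa, the receptor for CD47 (2.43 ± 1.64 against 3.91 ± 0.677 FPKM, 0.77), and Mpeg1, a pore-forming protein of phagosomes (7.83 ± 1.07 against 8.88 ± 1.87 FPKM, 0.25), all SD with n = 5. Sirpa was low in NIKflox 1 and 5, at 0.511 and 0.861 FPKM, and 2.82 to 4.65 FPKM in the other 8 libraries. Without NIKflox 2 and 4 its log2 fold change was 1.49 (edgeR adjusted p = 0.44).

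On the ligand side of the CSF1 receptor, Csf1 averaged 2.44 ± 0.532 FPKM in NIKflox livers against 2.25 ± 0.305 FPKM in NIKhKO livers, and Il34 1.09 ± 0.172 and 0.864 ± 0.183 FPKM (SD, n = 5 each; edgeR adjusted p = 0.94 and 0.72). Among the transcription factors, Spi1, which encodes PU.1, read 2.34 ± 0.430 and 2.72 ± 0.451 FPKM, and Nr1h3, the liver X receptor alpha that is also present in hepatocytes, 31.5 ± 5.01 and 31.9 ± 5.42 FPKM. Id3, an inhibitor of helix-loop-helix factors that Kupffer cells need and that other liver cells also express, had the smallest p-value of the 16 tested genes of this axis, at a log2 fold change of −1.03 (SE 0.27, adjusted p = 0.26 in edgeR). It read 38.4, 20.5, 59.2, 50.3 and 77.6 FPKM in NIKflox and 25.3, 27.6, 19.6, 19.8 and 23.1 FPKM in NIKhKO. NIKflox 2 lay among the NIKhKO libraries, which kept within 19.6 to 27.6 FPKM, and the other NIKflox libraries lay above them. Without NIKflox 2 and 4 the log2 fold change of Id3 was −1.29 (edgeR adjusted p = 0.14), so it was not called there either. The axis had 8 genes on either side of 0, a median of 0.0023 (−0.05 without NIKflox 2 and 4) and 0 called. Cbl (0.23) and Csf2ra (0.42) followed Id3 by p.

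Genes of recruited monocytes were mostly at low levels in both genotypes, and 11 of 20 passed the filter. Ly6c2, a surface protein of inflammatory monocytes, was at 0.102 to 0.358 FPKM, Cx3cr1, the fractalkine receptor, at 0.115 to 0.393 FPKM, and Ccr1 at no more than 0.135 FPKM. Of the tested genes 6 were positive and 5 negative, with a median of 0.12 and 0 called. Fcgr4, an Fc receptor for IgG, had the smallest p-value (3.39 ± 0.775 against 4.17 ± 0.595 FPKM, log2 fold change 0.36, edgeR adjusted p = 0.55), followed by Itgal (0.29) and S100a6 (−0.52). The chemokine Ccl2 read 2.81 FPKM in NIKflox 2 and 0.197 FPKM in NIKflox 1, and 1.23 to 1.72 FPKM in NIKhKO.

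Genes of the lipid-associated macrophage state fell on both sides. Trem2, a receptor used as a marker of this state, was at 0.162 FPKM or less in every library, and Gpnmb at 0.614 FPKM or less. Of 15 genes 11 were tested, 5 positive and 6 negative, with a median of −0.0062 (0.19 without NIKflox 2 and 4) and 0 called. Ctsb, a lysosomal protease present in many liver cells, had the smallest p-value (129 ± 8.62 against 157 ± 14.9 FPKM, log2 fold change 0.34, edgeR adjusted p = 0.23). Spp1, which bile duct cells also express, read 31.6 ± 9.24 and 19.2 ± 3.36 FPKM (−0.66, edgeR adjusted p = 0.29), with ranges that did not overlap, and Krt19, a bile duct marker, went the same way (−1.12, edgeR adjusted p = 0.25). Lpl, a lipase, had a value of 0.51 (edgeR adjusted p = 0.34). The part of bile duct cells in the Spp1 values was not tested.

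Of the scavenger and lectin receptors, 12 of 16 were tested, 7 positive and 5 negative, with a median of 0.09 and 0 called. Clec7a, the receptor for fungal beta-glucans, read 1.42, 1.38, 0.911, 1.28 and 0.709 FPKM in NIKflox and 1.27, 2.15, 2.79, 1.12 and 2.34 FPKM in NIKhKO, a log2 fold change of 0.83 (edgeR adjusted p = 0.38). NIKhKO 2, 3 and 5 lay above the NIKflox libraries and NIKhKO 1 and 4 among them. Scarb2, a lysosomal membrane receptor, had a log2 fold change of −0.18, and Clec12a, an inhibitory lectin of myeloid cells, of 0.37.

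**Figure D5:**
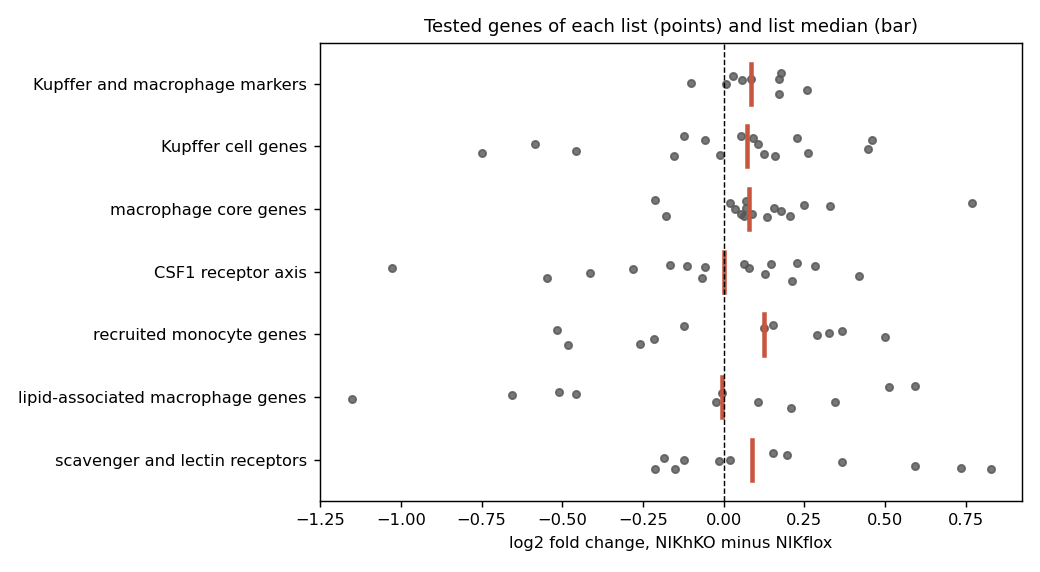
Log2 fold changes (NIKhKO minus NIKflox, horizontal axis) of the tested genes of the 10 markers and of 6 macrophage lists as points, with each list's median as a red bar. The medians of these 7 rows lie between −0.0062 and 0.12, and the point farthest to the left among them, at −1.15, is Cd9.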

How the data were processed

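Liver RNA of 10 mice was sequenced. Per the submitters' processing notes, cutadapt 1.9, HISAT2 2.0.4, StringTie 1.3.4d and edgeR (no version) were used, with no roles given. The notes name hg38, but the identifiers are mouse, and 51957 of 55401 genes have the GRCm38 (GENCODE M21) start and end. The FPKM values are the authors' own, per the file headers. The deposited estimated counts are whole numbers and are not normalized. Low counts pile up at 4 (on average 907 genes per library, against 330.5 at 3 and 175.8 at 5), so 1 count need not be 1 read and the true depth may be lower than the totals. Counts were tested with edgeR 4.0.16 (R 4.3.3; quasi-likelihood, TMM, Benjamini-Hochberg over 12731 genes whose mean reached 0.5 FPKM, Map3k14 kept whatever its level), which was tested on simulated data. Standard errors are the log2 fold change over the square root of F, and 95% intervals use the fit's degrees of freedom. Correlations used 100000 permutations, two-sided. Alternatives used limma 3.58.1 and DESeq2 1.42.0.

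The 10 markers and the 17 lists were chosen with earlier results of these data known. All 10 markers were named, with the 3 tested genes of smallest p in each list and the 5 most like Clec4f and Ccr2. C1qa, C1qb, C1qc, Vsig4, Csf1, Il34, Spi1, Nr1h3, Ly6c2, Cx3cr1, Ccr1, Ccl2, Trem2, Gpnmb, Cd9, Alox15, Garnl3, Mpo, Camp, Jchain, Ms4a1, Mzb1, Alb and Adipoq were named for their role or position after their values were seen.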

Additional observations from a re-analysis of the deposited data

Results flagged for a closer look

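Among 22 groups of 5 libraries (10 markers and Map3k14 in each genotype), 2 held a library far from the others of its genotype; chance gives about 1 in 20 such groups. Cd68 read 11.4 FPKM in NIKhKO 3, where the gap to the next NIKhKO library was 0.837 of the range. Map3k14 read 0.899 FPKM in NIKflox 4, where the gap was 0.756 of the range.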

How the results depend on the processing

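The count of markers called stayed at 0 in the 21 alternatives run. With a replicate block, 2 genes of all were called and Cd68 had a log2 fold change of −0.0027. Deviations of same-numbered libraries had correlations of −0.316 to 0.030, and 0 of 5 NIKflox libraries correlated best with their own number. These correlations cannot show whether same-numbered mice shared a litter or cage, which the labels do not state. Over all genes, 3 calls became 0 in limma with either pseudocount (1385 and 1359 genes at an unadjusted p below 0.05), 207 in DESeq2, 6 with robust shrinkage, 1 without NIKflox 2 and 4, and 0 to 24 without single libraries, the 24 being without NIKhKO 4; the cause was not tested. On log2(FPKM + 1), limma turned Clec4f to −0.0036, Adgre1 to −0.0072, Cd68 to −0.0533 and Lyz2 to −0.0320, and on log2(FPKM + 0.1) to −0.0037, −0.0117, −0.0613 and −0.0321. The median of all genes was −0.0521 and −0.0695 in these fits. Without single libraries, log2 fold changes ran from −0.0311 to 0.2253 for Clec4f, −0.124 to 0.188 for Adgre1, −0.184 to 0.147 for Cd68 and −0.119 to 0.125 for Lyz2; those of Timd4, Cd5l, Csf1r, Folr2 and Marco kept their sign. Ccr2 has a value only in the fit without the filter. An alternative for the list genes and Ccr2, without NIKflox 2 and 4, was chosen after seeing the data. It turned the list medians of the CSF1 receptor axis to −0.0474 and of the lipid-associated and adipose genes to 0.1914 and 0.7864. It also turned Cfd to 6.28, Fabp4 to 0.0765, Mb to 3.75 and Actc1 to 0 (listed at the floor). Cfd and Mb were also at the floor in NIKflox 1, 3 and 5. Above it among the NIKhKO libraries, Mb was only in NIKhKO 5 (0.0736 FPKM) and Cfd only in NIKhKO 1 and 5 (0.0640 and 0.724 FPKM). The medians of the Kupffer cell and macrophage core genes were then 0.16 each, against 0.07 and 0.08. Depth limits Ccr2, with 28 to 97 estimated counts per library.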

Other observations

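Few markers of neutrophils, T and NK cells and dendritic cells passed the filter. Of 10 neutrophil markers, Mpo and Camp were at a count of 0 in all libraries, and 3 passed the filter, with the calprotectin genes S100a8 and S100a9 at log2 fold changes of −0.79 and −0.51 (edgeR adjusted p = 0.67 and 0.77) and Csf3r, the receptor for granulocyte colony-stimulating factor, at 0.10. Of 12 T and NK cell markers 2 passed, Trbc2 at 0.47 and Nkg7 at 0.15. Of 8 dendritic cell markers 2 passed and went apart. Clec9a, a receptor for dead cells on cross-presenting dendritic cells, read 0.533 ± 0.230 and 0.872 ± 0.266 FPKM, and Zbtb46, a dendritic cell transcription factor also found in endothelium, 0.759 ± 0.0780 and 0.574 ± 0.0508 FPKM (SD, n = 5 each, NIKflox first; edgeR adjusted p = 0.48 and 0.36). The ranges of Zbtb46 did not overlap, as for 2.2% of all genes tested.

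Markers of large peritoneal macrophages were measured because Timd4 and Cd5l are also expressed there. Prg4 and Icam2 had log2 fold changes of 0.33 and 0.27. Alox15 was at 0.185 FPKM in NIKflox 2 and at 0.0398 FPKM or less elsewhere, and Garnl3 was at 0.0497 FPKM or less. Gata6, the defining transcription factor of those cells, was measured at 1.33 to 1.81 FPKM in NIKflox and at 1.01 to 1.55 FPKM in NIKhKO (edgeR adjusted p = 0.75). The part of other cells of the liver in the values of these peritoneal macrophage markers was not tested. Of 8 B cell markers 5 were tested, and those 5 were all on the positive side, with a median log2 fold change of 0.94 and 0 called. Jchain, Ms4a1 and Mzb1 lay below the filter and did not go 1 way. Jchain was lower in NIKhKO (0.116 to 0.334 FPKM, against 0.274 to 0.769 FPKM in NIKflox). Ms4a1 was higher there (0.124 to 0.261 FPKM, against 0.0219 to 0.0945 FPKM). Mzb1 was at 0.251 FPKM or less in both genotypes. The summed level of all 8 was 3.94 to 7.38 FPKM in NIKflox and 5.48 to 15.0 FPKM in NIKhKO. The smallest p-values were those of the antibody genes Ighd and Ighm (log2 fold changes 1.62 and 0.91) and of Cd79a, a part of the B cell receptor (1.496), with edgeR adjusted p-values of 0.25, 0.44 and 0.29 in that order.

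The other cells of the liver that share the bulk RNA with macrophages had no called gene in any list. The 12 sinusoidal endothelial markers had a median log2 fold change of −0.08, with Wnt2 (−0.52), Pecam1 (−0.31) and Flt4 (−0.24) smallest in p. All 9 tested stellate cell markers were on the negative side, with a median of −0.31, led by Des (−0.58), Rgs5 (−0.59) and Col1a1 (−0.61), at edgeR adjusted p-values of 0.38, 0.50 and 0.69. NIKflox 2, which stands apart, was the highest library for these 3, with Rgs5 at 13.3 and Col1a1 at 7.03 FPKM. Without NIKflox 2 and 4, 8 of the 9 were negative, the median was −0.24, and Des, Rgs5 and Col1a1 were at −0.29, −0.43 and −0.12. All 5 tested bile duct markers were also on the negative side, with a median of −0.53, and Sox9 followed Krt19 and Spp1 at −0.53. The 9 tested hepatocyte markers had a median of −0.0058, with Cps1 at 0.29, Ass1 at 0.35 and Apoa1 at −0.25. Of the adipose markers, Car3, which hepatocytes also express, averaged 556 ± 83.1 FPKM in NIKflox against 1139 ± 351 FPKM in NIKhKO (SD, n = 5 each, edgeR adjusted p = 0.18). Cfd and Fabp4 were highest in NIKflox 2, at 14.4 and 6.96 FPKM. The heart genes Myh6, Mb and Actc1 were highest in NIKflox 4, at 7.44, 8.62 and 10.4 FPKM. Actc1 read 2.90 FPKM in NIKflox 2. It was listed at the floor in NIKflox 1, 3 and 5 and in all NIKhKO libraries.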
